A study of Mus musculus with 4 samples.

Results

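Phosphatidylcholine and phosphatidylethanolamine are the main phospholipids of liver membranes, and 10 genes of their synthesis, remodelling and transfer were followed on 4 liver arrays. The genes were taken by symbol, current or older, from the annotation of the probe sets: Chka, Chkb, Etnk1, Pcyt1a, Pcyt2, Chpt1, Pemt, Ptdss1, Lpcat3 and Pctp. They carry 21 of 22626 probe sets (groups of probes for 1 transcript) and are 10 of 12393 named genes. All 10 had at least 1 probe set above background on all 4 arrays, and 1 further probe set, annotated to Chkb and 2 other symbols, is given apart.

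The arrays, of the Affymetrix MOE430A type, hold liver RNA of male mice of 12 to 20 weeks. They form 4 groups: PPARα-null mice (129S4/SvJae) that ate chow with 0.1% Wy14643, a synthetic agonist of PPARα, for 5 days, wild-type mice (129S1/SvImJ) on the same chow, PPARα-null mice on control chow and wild-type mice on control chow. PPARα is a nuclear receptor that fatty acids and fibrate drugs activate in liver. RNA was pooled within each group and hybridized to 1 array, so no ratio has a replicate check or a p-value, and their precision is limited by the small number of arrays. Since the labels give the genotypes different strains, genotype and strain cannot be told apart. The array titled wild type on Wy14643 is described in its notes as a control, and its title was followed. Livers of the PPARα-null and wild-type mice are called null and wild-type livers in what follows. The deposited values are GCRMA intensities on a linear scale, and a ratio of at least 1.5 between arrays was called higher or lower. An intensity over 13.2, the 90th percentile of 77 probe sets of 46 genes of other tissues, was taken as above background.

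Phosphatidylcholine is made in hepatocytes along 2 routes. In the CDP-choline (Kennedy) pathway choline is phosphorylated, activated with CTP and joined to diacylglycerol, and ethanolamine follows parallel steps to phosphatidylethanolamine. In the other route, which is prominent in liver, phosphatidylethanolamine is methylated to phosphatidylcholine. The products serve in membranes, bile and the coat of lipoproteins, and their fatty acids are exchanged afterwards by lysophospholipid acyltransferases.

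Ppara, the disrupted gene, had an intensity of 428 in null and 1250.1 in wild-type livers on Wy14643, and of 326 in null and 847 in wild-type livers on control chow. It was thus 2.92-fold and 2.60-fold lower in null livers. Signal remained in both null pools, and the sources used here do not place the probe set inside or outside the deletion. Hepatocyte markers such as Alb and Ttr were above background on all arrays (8 of 8 genes), with a summed intensity of 62889.5 to 68907.9, and 3 of the 8 were higher in null than in wild-type livers on Wy14643. Markers of Kupffer cells, the resident macrophages, were lower on Wy14643 in both genotypes: 8 of 8 measured genes in null livers (summed intensity of the 10 genes on the array 667 on Wy14643 and 1307 on control) and 7 of 8 in wild-type livers (433 and 1096). Of the Kupffer markers on the array, Marco and Cd68 were below background on all 4 arrays, and the other 8, Clec4f, Vsig4 and Adgre1 among them, were above it on all 4. Stellate cell markers were higher in null than in wild-type livers on Wy14643 in 7 of 8 genes (summed 2891 in null and 1173 in wild-type livers). On control chow the sums were 2682 in null and 2281 in wild-type livers. Between the diets, 4 of 7 stellate markers were lower on Wy14643 in wild-type livers, and in null livers 3 of 8 were higher and 1 lower. Neutrophil markers were higher in null than in wild-type livers on Wy14643 in 3 of 4 (summed 265 in null and 63.1 in wild-type livers, against 70.7 and 63.5 on control chow). Of these 3, Ngp was below background in wild-type livers. Set against the background level, it was 1.35-fold higher, short of 1.5-fold. Sinusoidal endothelial markers were lower on Wy14643 than on control chow in 5 of 8 genes in null livers and in 1 of 8 in wild-type livers. Of the 5, Kdr and Cdh5 were below background in null livers on Wy14643. Set against the background level, they were 1.28-fold and 1.57-fold lower, so Kdr fell short of 1.5-fold. Over all genes, 4.47% were lower on Wy14643 than on control chow in null livers and 16.1% in wild-type livers. Between the genotypes on Wy14643, 17.8% of all genes were higher in null livers. Whether such shifts in cell makeup play a part in the ratios below was not tested, and in whole liver fewer cells of a type and less RNA per cell cannot be told apart.

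On Wy14643, null livers had less signal than wild-type livers, by 1.5-fold or more, for 5 of the 10 genes, 1 was higher and 4 lay between. Lower were Chkb, Lpcat3, Pctp, Chpt1 and Etnk1, and higher was Pcyt2. Among all 7618 genes above background on at least 1 of these 2 arrays, 16.7% were lower and 17.8% higher. The median log2 ratio was -0.48 over the 10 genes and 0.02 over all genes. With the control diet, 0 of the 10 genes reached 1.5-fold between the genotypes in either direction, where 2.43% of 7326 genes were lower and 2.50% higher. Ptdss1 and Lpcat3 lay just inside that threshold, and both passed it, lower in null livers, with arrays centred on their median or aligned by cyclic loess. In wild-type livers 4 of the 10 were higher on Wy14643 than on control chow and 1 was lower (15.1% and 16.1% of 7548 genes), and in null livers 0 were higher and 0 lower (2.31% and 4.47% of 7457 genes). These comparisons share arrays, so their counts are not separate evidence.

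Counted by probe set, 20 of the 21 were above background on all 4 arrays. Between the genotypes on Wy14643, 13 of the 20 were lower in null livers and 1 was higher (17.0% and 16.4% of 12824 probe sets), and on control chow 1 was lower and 1 higher (2.27% and 2.44% of 12314). On Wy14643 against control chow, 0 were higher and 0 lower in null livers (2.16% and 4.74% of 12502), and 8 were higher and 1 lower in wild-type livers (14.8% and 14.8% of 12702). Chkb, Etnk1, Chpt1, Lpcat3 and Pctp had every probe set lower in null livers on Wy14643, though Chkb and Lpcat3 have only 1 each.

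**Figure D1:**
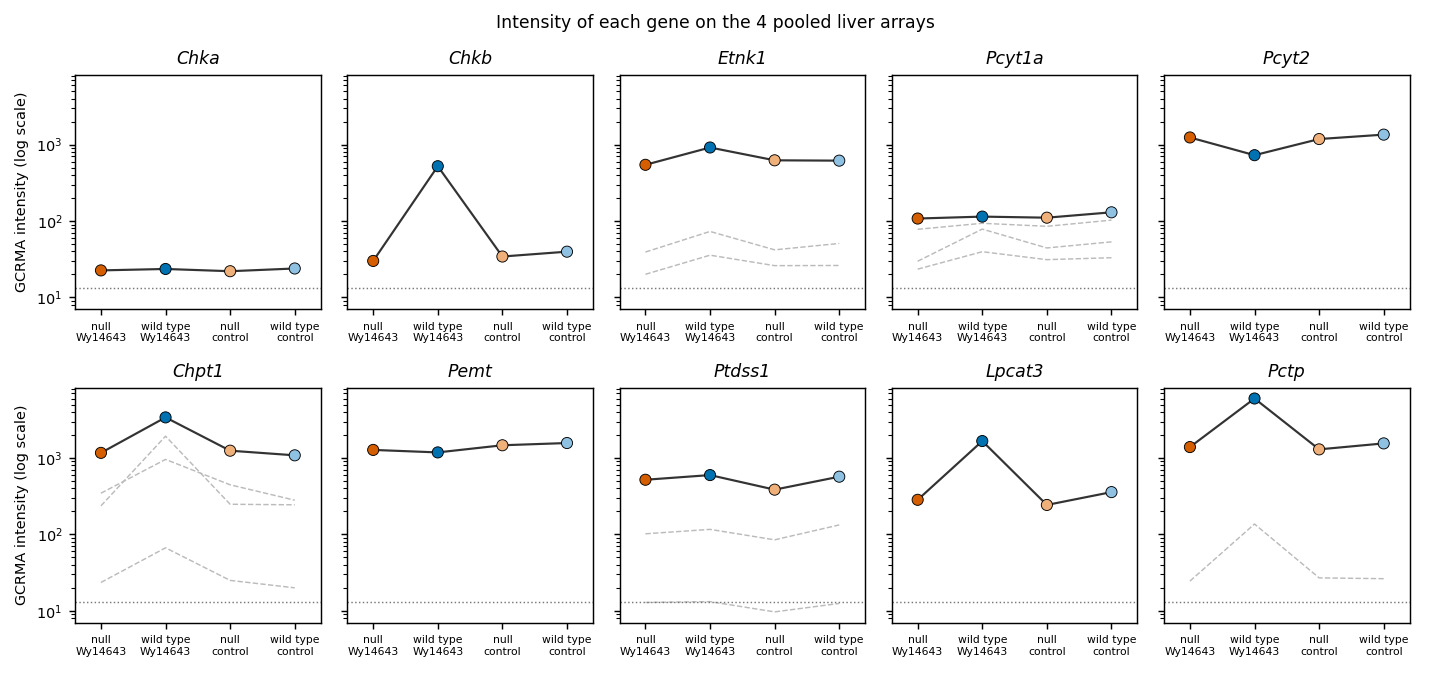
GCRMA intensity (vertical, log scale) of each gene on the 4 arrays, 1 point per array of pooled RNA, with the brightest probe set of the gene in solid line, its other probe sets dashed and the background level of 13.2 dotted. Chkb, Lpcat3, Pctp and Chpt1 stand apart on the wild-type Wy14643 array alone, Pcyt2 is lowest there, and levels of different probe sets are not comparable with each other.

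The promoters of the 4 genes that were higher on Wy14643 in wild-type livers are shown because these genes moved together on the same array. They are RefSeq windows (GRCm38.p6) from 250 bases before to 50 bases after the transcript start, and 8 of the 10 genes had such a window. PPARα binds, as a heterodimer with RXR, a direct repeat of the hexamer AGGTCA with 1 base between, AGGTCANAGGTCA. Both strands were searched, and capitals mark the 13-base stretch closest to this repeat.
Chkb, chr15:89429878-89430177, minus strand: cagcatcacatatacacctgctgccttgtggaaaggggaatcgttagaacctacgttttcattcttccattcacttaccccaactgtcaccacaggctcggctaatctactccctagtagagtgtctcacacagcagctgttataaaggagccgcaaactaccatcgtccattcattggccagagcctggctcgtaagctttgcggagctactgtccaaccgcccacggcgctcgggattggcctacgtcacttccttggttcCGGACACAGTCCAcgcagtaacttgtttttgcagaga
Chpt1, chr10:88503921-88504220, minus strand: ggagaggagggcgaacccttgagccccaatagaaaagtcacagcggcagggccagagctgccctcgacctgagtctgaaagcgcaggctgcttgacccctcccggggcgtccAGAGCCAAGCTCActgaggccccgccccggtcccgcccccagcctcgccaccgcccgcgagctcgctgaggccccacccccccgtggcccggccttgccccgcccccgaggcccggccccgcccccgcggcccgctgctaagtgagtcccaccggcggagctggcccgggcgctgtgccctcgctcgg
Lpcat3, chr6:124662854-124663153, plus strand: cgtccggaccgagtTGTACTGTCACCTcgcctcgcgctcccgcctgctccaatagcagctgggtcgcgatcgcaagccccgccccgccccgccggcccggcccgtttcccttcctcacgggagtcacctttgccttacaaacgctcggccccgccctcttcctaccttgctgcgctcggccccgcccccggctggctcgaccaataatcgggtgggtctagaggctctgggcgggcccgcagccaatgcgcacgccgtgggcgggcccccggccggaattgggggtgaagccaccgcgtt
Pctp, chr11:90002845-90003144, minus strand: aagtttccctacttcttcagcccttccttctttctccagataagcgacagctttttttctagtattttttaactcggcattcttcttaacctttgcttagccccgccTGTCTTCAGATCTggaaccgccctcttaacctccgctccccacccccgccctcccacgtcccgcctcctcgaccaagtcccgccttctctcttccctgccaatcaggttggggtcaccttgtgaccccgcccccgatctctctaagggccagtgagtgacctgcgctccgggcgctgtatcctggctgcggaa

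No window of the 8 genes came closer to the repeat than 3 mismatches over its 12 fixed positions. Lpcat3 reached 3 mismatches, on the minus strand from position -236, and Chkb (from position 14), Chpt1 (from -138) and Pctp (from -143) reached 4. Over 32544 distinct promoter windows, 24.7% hold a stretch with at most 3 mismatches and 79.8% one with at most 4, so such matches are common. The single hexamer AGGTCA, found in 16.2% of windows on either strand, occurred among these 4 only in Pctp, on the minus strand from position 14. A match describes the letters in this window only. The windows of Chpt1 and Lpcat3 were rich in G and C (75.3% and 71.0%), whereas those of Pctp (56.7%) and Chkb (51.7%) lay nearer the median of 53.0% over all windows.

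Choline and ethanolamine kinases open the Kennedy pathway. Chkb, the β form of choline kinase, had an intensity of 30.1 in null and 522 in wild-type livers on Wy14643, and of 34.3 in null and 39.7 in wild-type livers on control chow. Only the wild-type Wy14643 array was high, and the other 3 arrays lay close together. Chkb was thus 17.4-fold lower in null than in wild-type livers on Wy14643, the largest ratio among the 10 genes, and 0.814% of all genes differed at least as far between these arrays. Within wild-type livers it was 13.1-fold higher on Wy14643 than on control, against a log2 ratio of -0.19 in null livers.

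A caveat attaches to the Chkb locus. Chkb lies next to Cpt1b, the muscle-type carnitine palmitoyltransferase gene, and the reference table lists a transcript, Gm44502, that spans both. Probe set 1418328_at is annotated to Gm44502, Cpt1b and Chkb together and was not counted for Chkb. Its intensity was 6.0 in null livers and 276 in wild-type livers on Wy14643, and 6.26 in null and 6.08 in wild-type livers on control chow, so that 3 of the 4 arrays were below background. That is at least 20.9-fold lower in null than in wild-type livers on Wy14643, set against the background level. How much of the Chkb signal comes from the transcript that spans both genes was not tested.

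Chka, the α form of choline kinase, showed a flat profile. Its intensities were 22.6 in null and 23.6 in wild-type livers on Wy14643, and 22.1 in null and 23.9 in wild-type livers on control chow. The log2 ratios lay between -0.12 and 0.04 in the 4 comparisons. Its only probe set was dim, so there was little room for a lower value.

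Etnk1, which phosphorylates ethanolamine, was modestly lower in null livers on Wy14643. Its brightest probe set read 545 in null and 918 in wild-type livers on Wy14643, and 624 in null and 618 in wild-type livers on control chow. The ratio on Wy14643 was 1.69-fold lower in null livers, and 26% of all genes differed at least as far. Both dimmer probe sets gave 1.86-fold and 1.78-fold lower, and all 3 were designed from the same sequence record. Set against control chow, the 3 stood at log2 ratios of 0.57, 0.52 and 0.45 in wild-type livers on Wy14643, all under the threshold (which the brightest passed with centred arrays), and at -0.20, -0.10 and -0.38 in null livers.

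The enzymes that activate phosphocholine and phosphoethanolamine with CTP set the pace of each branch, and their genes differed. Pcyt2, of the ethanolamine branch, had an intensity of 1243 in null and 728 in wild-type livers on Wy14643, and of 1185 in null and 1353 in wild-type livers on control chow. The wild-type Wy14643 array was the low one. Pcyt2 was 1.71-fold higher in null than in wild-type livers on Wy14643, and 1.86-fold lower on Wy14643 than on control chow in wild-type livers, with a log2 ratio of 0.07 in null livers. About as large a change was common on these arrays: 25.4% and 17.8% of genes lay at least as far out in those 2 comparisons, and Pcyt2 has a single probe set.

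Pcyt1a, of the choline branch, gave different answers by probe set. The brightest read 108 in null and 114 in wild-type livers on Wy14643, and 111 in null and 130.2 in wild-type livers on control chow, a log2 ratio of -0.08 between the genotypes on Wy14643. Another, 1421957_a_at, was close to it at -0.26. By contrast, 1424453_at read 29.8 in null and 78.5 in wild-type livers on Wy14643, and 44.5 in null and 53.4 in wild-type livers on control chow, which is 2.63-fold lower in null livers on Wy14643. The dimmest, 1450434_s_at, was 1.69-fold lower there. On Wy14643 against control chow, 1424453_at stood at a log2 ratio of -0.58 in null and 0.56 in wild-type livers. For 1450434_s_at these ratios were -0.41 and 0.26, and all lay under the threshold. Pcyt1a was counted as lying between, by its brightest probe set, and 2 of its 4 probe sets were past 1.5-fold lower.

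Chpt1, the cholinephosphotransferase that joins CDP-choline to diacylglycerol, had 4 probe sets, and all 4 were high on the wild-type Wy14643 array. The brightest read 1167 in null and 3397 in wild-type livers on Wy14643, and 1245 in null and 1083 in wild-type livers on control chow. It was 2.91-fold lower in null than in wild-type livers on Wy14643, with 8.36% of all genes at least as far out, and 3.14-fold higher on Wy14643 than on control chow in wild-type livers. Probe set 1426146_a_at read 236 in null and 1928 in wild-type livers on Wy14643, against 248 and 244 in the null and wild-type controls, and was thus 8.16-fold lower in null livers. The remaining ones gave 2.77-fold and 2.84-fold lower. On control chow all 4 were at or above the wild-type level in null livers, and 1455901_at reached 1.59-fold higher (445 in null and 280.0 in wild-type livers), while the brightest stood at a log2 ratio of 0.20. Chpt1 overlaps Sycp3, which lies on the opposite strand in the reference. The Sycp3 probe set was above background on the wild-type Wy14643 array only, at 18.9.

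**Figure D2:**
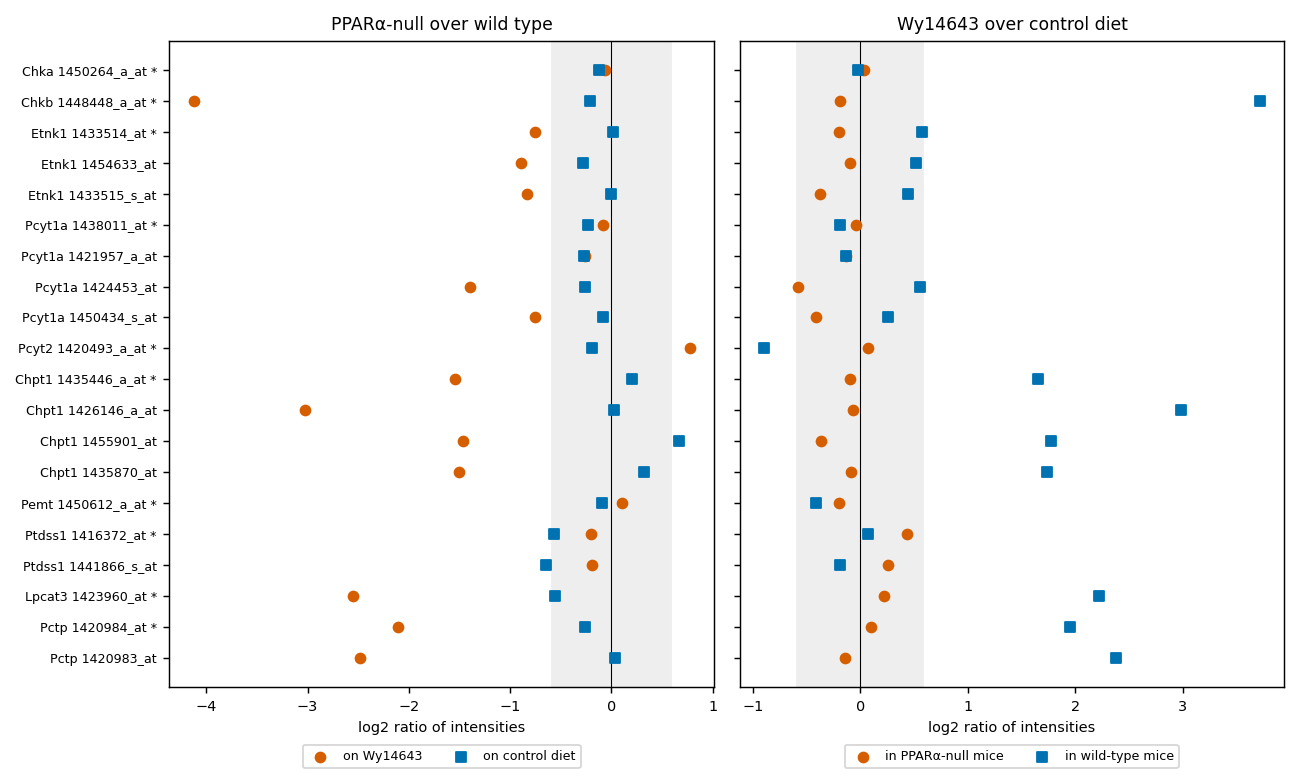
Log2 ratio of intensities (horizontal) of the 20 probe sets above background on all 4 arrays, with the brightest of each gene starred and ratios under 1.5-fold shaded. The left panel sets null over wild type on Wy14643 (circles) and on control chow (squares), the right panel Wy14643 over control in null (circles) and wild-type livers (squares); all 20 circles at right are inside the shaded band.

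Pemt, which methylates phosphatidylethanolamine to phosphatidylcholine, differed little between the arrays. It read 1275 in null and 1182 in wild-type livers on Wy14643, and 1466 in null and 1569 in wild-type livers on control chow. The log2 ratio of Wy14643 to control was -0.20 in null and -0.41 in wild-type livers, both under the threshold, and that between the genotypes on Wy14643 was 0.11.

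Ptdss1, which exchanges the head group of phosphatidylcholine for serine, had a pattern of its own. It read 519 in null and 597 in wild-type livers on Wy14643, and 385 in null and 569 in wild-type livers on control chow. The null control array was the low one. On control chow Ptdss1 stood at a log2 ratio of -0.56 in null over wild-type livers, just under the threshold, and 5.41% of all genes lay at least as far out. A dimmer probe set, 1441866_s_at, passed it at 1.57-fold lower, with 84.8 in null and 133 in wild-type livers, and a further one was below background on all 4 arrays. On Wy14643 these 2 probe sets stood at -0.20 and -0.19. Ptdss1 overlaps Mterf3 in the reference table, and Mterf3 was at 117 in null and 173 in wild-type livers on Wy14643, against 203 and 211 in the null and wild-type controls.

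Lpcat3 returns polyunsaturated fatty acids to lysophospholipids and so sets the acyl chains of membrane phosphatidylcholine. It had an intensity of 283 in null and 1665 in wild-type livers on Wy14643, and of 243 in null and 357 in wild-type livers on control chow. The wild-type Wy14643 array was far above the other 3, and the null control was the lowest. Lpcat3 was 5.88-fold lower in null than in wild-type livers on Wy14643, with 3.02% of all genes at least as far out, and 4.66-fold higher on Wy14643 than on control chow in wild-type livers. In null livers that log2 ratio was 0.22. Already on control chow Lpcat3 stood at a log2 ratio of -0.56 in null over wild-type livers. Its single probe set leaves no further reading of the gene. Lpcat3 overlaps Emg1 on the opposite strand, and Emg1 went the other way, at 700.4 in null and 299 in wild-type livers on Wy14643 and 723 and 663 in the null and wild-type controls.

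Pctp encodes a soluble protein of the START family that binds phosphatidylcholine and moves it between membranes. Its brighter probe set read 1389 in null and 6003 in wild-type livers on Wy14643, and 1296 in null and 1551 in wild-type livers on control chow. Its dimmer one read 24.4 in null and 137 in wild-type livers on Wy14643, and 26.9 in null and 26.3 in wild-type livers on control chow. In each case the wild-type Wy14643 array was high and the other 3 lay close together. Pctp was 4.32-fold and 5.59-fold lower in null than in wild-type livers on Wy14643, and on Wy14643 it exceeded its control chow level 3.87-fold and 5.2-fold in wild-type livers. The 2 probe sets were made from the same sequence record. In null livers their log2 ratios of Wy14643 to control were 0.10 and -0.14.

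**Figure D3:**
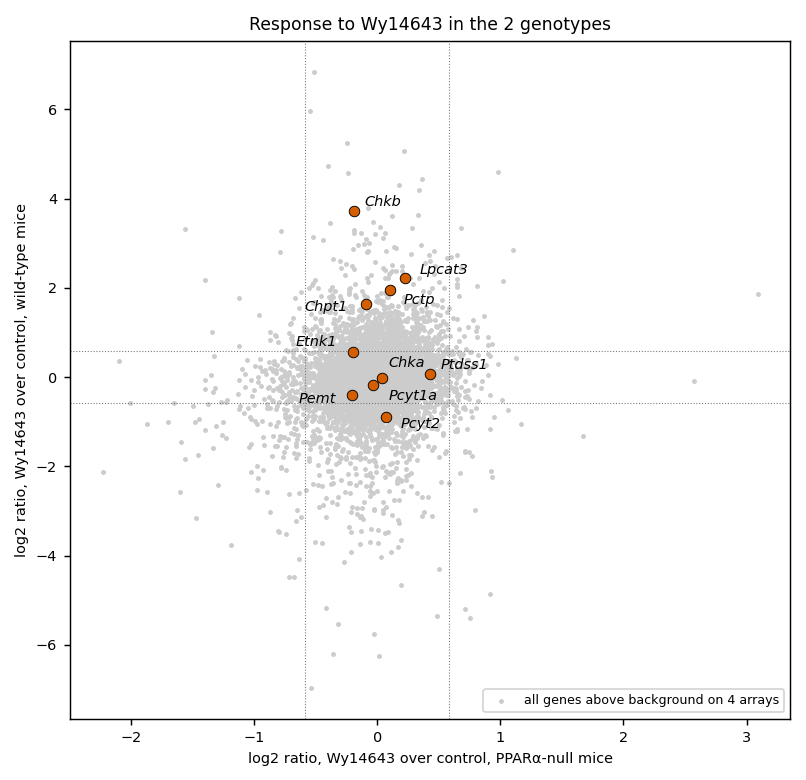
Log2 ratio of Wy14643 to control chow in null (horizontal) and wild-type livers (vertical) for 6553 genes above background on all 4 arrays (grey) and the 10 genes by their brightest probe set (orange), with dotted lines at 1.5-fold. Chkb, Lpcat3, Pctp and Chpt1 lie above the upper line at 3.72, 2.22, 1.95 and 1.65, Pcyt2 below the lower one at -0.89, and all 10 within the vertical lines.

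The response to Wy14643 in null livers minus that in wild-type livers puts the 4 arrays into 1 value per gene. This difference of log2 ratios was -3.91 for Chkb, -2.00 for Lpcat3, -1.85 for Pctp, -1.74 for Chpt1 and -0.77 for Etnk1. It was 0.96 for Pcyt2, 0.36 for Ptdss1, 0.21 for Pemt, 0.15 for Pcyt1a and 0.06 for Chka. The standard deviation of the log2 ratio over all probe sets was 0.28 between the null arrays and 0.64 between the wild-type arrays. The difference for Pcyt1a turned sign with the probe set: 1421957_a_at gave 0.01, 1450434_s_at -0.67 and 1424453_at -1.13. The median over the 10 genes, by their brightest probe sets, was -0.36. None of these differences could be tested with 1 array a group.

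Other genes of phospholipid metabolism were read from 9 lists of 71 genes, of which 55 were on the array with a symbol of their own. On Wy14643, 16 of 49 measured genes passed 1.5-fold as lower in null livers and 12 as higher, with 21 between (median log2 ratio -0.03). Over all genes 16.7% were lower and 17.8% higher, and these shares also stand beside the counts by list below. On control chow 1 of 50 was lower and 2 higher, where 2.43% of all genes were lower and 2.50% higher. Among the Kennedy pathway genes only Cept1, which makes both phosphatidylcholine and phosphatidylethanolamine, was measured. It read 175 in null and 355 in wild-type livers on Wy14643 (2.03-fold lower in null livers), and 236 in null and 262 in wild-type livers on control chow. In wild-type livers its log2 ratio of Wy14643 to control was 0.44 and in null livers -0.43, neither past the threshold. Ptdss2, the serine exchange enzyme that uses phosphatidylethanolamine, was 1.54-fold lower in null livers on Wy14643 (20.6 in null and 31.8 in wild-type livers).

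Of the other lysophospholipid acyltransferases, 3 of 7 were measured and 0 passed 1.5-fold in any of the 4 comparisons. Lpcat1 was dim, at 18.4 to 26.2 over the 4 arrays, and Lclat1 read 39.3 to 57.6. Only Lpgat1 was bright, at 1099 to 1308. So few genes do not set Lpcat3 apart from its family. On Wy14643 the log2 ratio of null to wild-type livers was -0.34 for Lpcat1, -0.18 for Lclat1 and -0.05 for Lpgat1. Carriers and exporters of phospholipids had 3 of 6 lower and 0 higher. Pltp, the phospholipid transfer protein of plasma, was 17.7-fold lower in null livers (192 in null and 3403 in wild-type livers), Pitpnb, which carries phosphatidylinositol and phosphatidylcholine, 1.94-fold, and Abcb4, which secretes phosphatidylcholine into bile, 1.61-fold. These 3, named for their ratio between the genotypes, also passed 1.5-fold between the diets in null livers. Both comparisons use the null Wy14643 array. Over all genes, 2.31% were higher and 4.47% lower on Wy14643 in null livers. The other measured carriers did not pass, with log2 ratios of -0.44 for Stard7, 0.20 for Stard10 and -0.28 for Pitpna. Pltp was 2.64-fold lower on Wy14643 than on control chow in null livers (192 on Wy14643 and 508 on control) and 4.49-fold higher in wild-type livers (3403 and 758). Pitpnb was 1.61-fold lower on Wy14643 in null livers (53.0 and 85.3), with a log2 ratio of 0.00 in wild-type livers. Abcb4 was higher on Wy14643 in both genotypes, by 1.76-fold in null livers (1846 on Wy14643 and 1050.4 on control) and by 2.18-fold in wild-type livers (2980 and 1364). The START family gene Stard10 lay within 1.15-fold in all 4 comparisons.

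Of 9 measured genes of choline uptake and oxidation, 4 were higher and 3 lower in null livers on Wy14643 (median log2 ratio 0.40). Sardh, which demethylates sarcosine, was 4.74-fold higher, Bhmt, which returns the methyl group of betaine to methionine, 2.72-fold and Dmgdh, which acts on dimethylglycine, 2.15-fold. Among 5 genes that make or use S-adenosylmethionine, the methyl donor of Pemt, 2 were higher in null livers and 0 lower. Gamt, of creatine synthesis, was 5.49-fold higher (991 in null and 181 in wild-type livers) and Gnmt, the glycine methyltransferase, 2.21-fold, with Ahcy at a log2 ratio of 0.53.

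Breakdown genes went both ways, with 6 of 18 lower and 4 higher in null livers on Wy14643. Lipg (endothelial lipase) was 4.78-fold, the phospholipase gene Plaat3 4.37-fold and Pla2g6, a calcium-independent phospholipase, 3.87-fold lower. Lipg was also 2.67-fold lower in null livers on control chow (13.7 in null and 36.4 in wild-type livers). In the branch to phosphatidylinositol and cardiolipin 1 of 4 was higher and 1 lower: Cds2, which makes CDP-diacylglycerol, was 2.99-fold higher and Pgs1, of phosphatidylglycerol synthesis, 1.74-fold lower, and Ptpmt1 stood at a log2 ratio of -0.33. The lipins, which supply diacylglycerol, were split, with Lpin1 9.05-fold higher (983 in null and 109 in wild-type livers) and Lpin2 1.77-fold lower.

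**Figure D4:**
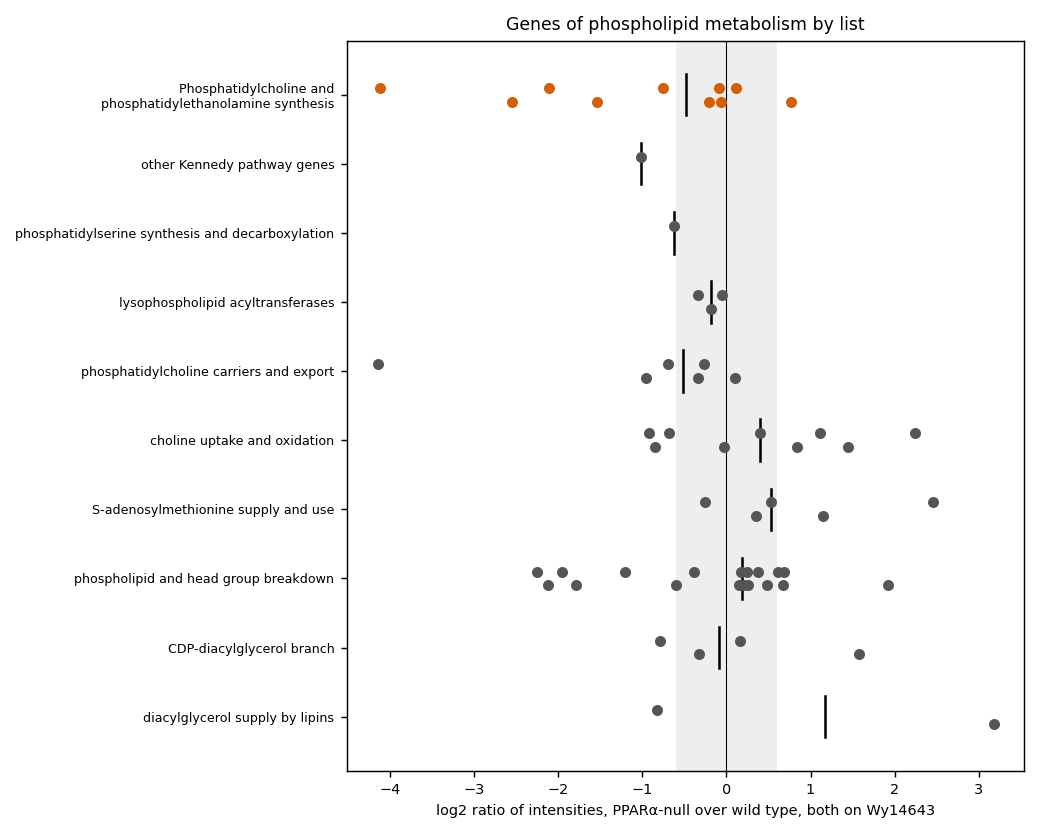
Log2 ratio of null to wild-type livers on Wy14643 (horizontal) for the 10 genes (orange) and for the other lists of phospholipid metabolism (grey), 1 point per gene by its brightest probe set, with the median of each list as a black bar and ratios under 1.5-fold shaded. Chkb at -4.12 and Pltp at -4.15 lie farthest left and Lpin1 at 3.18 farthest right.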

How the data were processed

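Liver RNA of 4 groups was measured with 1 array of pooled RNA each. The authors made the deposited intensity values with GCRMA, for which the submitters' notes give version 2.20; it removes background, applies quantile normalization and combines the probes of a set. Quantile normalization gives the arrays nearly the same distribution, so a shift shared by most genes would not be seen, and the background correction spreads dim values. Which arrays were normalized together is not given in the sources used here. The study describes pools of 5 mice in its design and of a variable number elsewhere. The labels and methods describe RNA labelling differently.

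Of 22690 probe sets, 64 controls were left out. The annotation gave 20380 probe sets 1 symbol, 691 several and 1555 none, and symbols were updated through gene identifiers of GRCm38.p6. The probe set with the highest mean stood for a gene. Ratios were taken on the log2 scale, with 1.5-fold as in the study. Where an array was below background, the fold is given as a bound, while counts used the ratio of the deposited intensities. Genes were named by rule: all 10 genes, Ppara, and of each list the 3 with the largest ratio between genotypes on Wy14643; Stard10 and the markers and neighbouring genes were chosen after their values were seen. The 10 genes and all lists were chosen with earlier results of these data known. The calls were tried on simulated arrays with planted changes of 2-fold or more. Changes nearer 1.5-fold were not simulated, so this does not bear on ratios close to that threshold. Alternatives were another background, 32 added to intensities, centring, cyclic loess, other probe sets and a 2-fold threshold. Python 3.11.15 (numpy 2.4.6, pandas 2.3.3, matplotlib 3.10.9) and R 4.3.3 (limma 3.58.1) were used.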

Additional observations from a re-analysis of the deposited data

Results flagged for a closer look

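For 4 of the 10 genes the log2 ratio of Wy14643 to control had opposite signs in null and wild-type livers and that in wild-type livers was larger in size than 0.28, the standard deviation of log2 ratios between the null arrays. The response in null minus that in wild-type livers, on the log2 scale, was -3.91 for Chkb, -1.74 for Chpt1, -0.77 for Etnk1 and 0.96 for Pcyt2. In null livers the ratios themselves were small (-0.19 for Chkb, -0.09 for Chpt1, -0.20 for Etnk1 and 0.07 for Pcyt2), none past 1.5-fold and all within 0.28 of 0, so no direction is given for them. Chka also had opposite signs, at 0.04 in null and -0.02 in wild-type livers. With 1 array a group the difference was not tested.

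Probe set 1418328_at, which is shared by Gm44502, Cpt1b and Chkb and entered no count, had an intensity of 275.8 on the wild-type Wy14643 array and was below background on the other 3.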

How the results depend on the processing

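With 1 array a group, no array could be left out, and counts at a fold threshold have no error. No paired analysis was possible because each group holds 1 pool. The count of 5 genes lower in null livers on Wy14643 and that of 4 genes above control on Wy14643 in wild-type livers stayed within 1.5 times, and the counts of 0 for Wy14643 against control in null livers at 0, under every alternative tried. The single gene higher in null livers on Wy14643, Pcyt2, became 0 at a 2-fold threshold and when probe sets ending in _x_at, _s_at or _a_at were left out, which removes its only probe set, and the single gene lower on Wy14643 in wild-type livers, again Pcyt2, became 0 in the same 2 settings. Leaving those probe sets out kept 6 of the 10 genes, since it also removed Chkb, Chka and Pemt. Without Chkb, the counts of 5 and 4 genes became 4 and 3. This setting gave 1 gene, Chpt1, higher in null livers on control chow. The count lower in null livers on control chow, 0 as reported, became 2 with arrays centred on their median and 2 with cyclic loess, and 1 with the median of a gene's probe sets and 1 with the dimmest probe set; Ptdss1 and Lpcat3 lie just under the threshold there. The median difference of responses, -0.36 as reported over 10 genes, was -1.31 over the 6 genes left without the named probe set classes. It was -0.75 with the dimmest probe sets and -0.59 with the median of a gene's probe sets. Among values of single genes, 408 moved by less than the standard deviation of log2 ratios between the null arrays (0.28) and 22 by more, with 0 called values changing sign. Part of the 408 could not move. Settings that changed only the background left every value and count as it was, because the 10 genes lay above every level tried. Each such setting gave 50 of the unmoved values. Likewise, the median and dimmest settings could not change the 5 genes measured by 1 probe set. Pcyt1a passed 1.5-fold between the genotypes on Wy14643 with the median (-0.83) or dimmest (-0.76) of its probe sets, and Chkb shrank to -3.16 with 32 added. Dim probe sets, such as that of Chka, limit what can be read.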

Other observations

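Some neighbouring genes on the chromosome were also on the array. Next to Pcyt2, the deacetylase gene Sirt7 read 67.5 in null and 36.2 in wild-type livers on Wy14643, and 56.3 in null and 63.3 in wild-type livers on control chow, so both were low on the wild-type Wy14643 array. Next to Chka, which was flat, Tcirg1, a subunit gene of the vacuolar proton pump, read 135 in null and 59.6 in wild-type livers on Wy14643 (log2 ratio 1.18). Tmem100, beside Pctp, read 14.3 in null and 17.6 in wild-type livers on Wy14643, near background, with a log2 ratio of -0.31.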
